A study of Mus musculus with 9 samples.

Results

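The genes described here are 10 markers of fibroblasts, namely *Pdgfra*, *Pdgfrb*, *Tcf21*, *Thy1*, *Ddr2*, *S100a4*, *Vim*, *Wt1*, *Dpep1* and *Fap*, chosen by name. All 10 were found by gene symbol in each of the 3 deposited tables, which list 14819, 14986 and 14908 genes. The markers and the gene lists below were chosen with earlier results of these data known, so their counts are no independent evidence. The tables come from RNA sequencing of neonatal rat ventricular myocytes (NRVMs), which are heart muscle cells isolated from the ventricles of Sprague Dawley rats at an age of 1 or 2 days and kept in culture. The cells received an adenovirus at a multiplicity of infection of 50 after 48 h in medium with 3% fetal bovine serum, and per the study's methods were collected 48 h after infection. The control group received LacZ, which encodes a bacterial beta-galactosidase. The second received Nrf1 and the third Nrf2, which are related stress-response transcription factors encoded by *Nfe2l1* and *Nfe2l2*, and each group had 3 libraries. Per the methods, both factors were the mouse proteins, expression was driven by the CMV promoter, which is active in most cell types, and the vector of every group also carried a red fluorescent protein. The cultures were not sorted after plating, as far as the labels say, so they could hold fibroblasts and other heart cells beside the myocytes.

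Fibroblasts build and remodel the connective tissue of the heart. Cardiac fibroblasts arise mainly from the epicardium, the outer layer of the heart, and are commonly recognized by the receptor Pdgfra and the transcription factor Tcf21, while proteins such as Fap appear on activated fibroblasts. Several of the 10 genes are not restricted to fibroblasts: Pdgfrb is also made by pericytes, Thy1 by some immune and nerve cells, Wt1 by the epicardium, S100a4 by leukocytes and Vim by nearly every cell of mesenchymal origin. In RNA from a whole culture, fewer cells of a type and less RNA per cell cannot be told apart.

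Each table compares one pair of groups and gives, for every gene, 1 mean normalized count per group as computed by the authors. No value per library was available here, so the spread between replicates could not be estimated, and the authors' own comparison columns were not used, so no difference below carries a test. The results are ratios of group means, and a gene is called lower or higher when its ratio passes 1.5-fold. The 95% counting intervals given with the ratios were calculated from the approximate number of reads behind each mean. They cover counting error only and are narrower than the spread between cultures would be. The levels are not divided by gene length, so they were compared between groups and not between genes. The same group means recur in the tables with a different scale, by a factor of 1.07 for LacZ, 1.12 for Nrf1 and 1.04 for Nrf2, and both comparisons with LacZ therefore share the same 3 control libraries. *Nfe2l2* was listed at 3475 in LacZ and 75066 in Nrf2 samples, and in the other table at 3254 in LacZ and 2688 in Nrf1 samples. The group labelled Nrf2 thus held an excess of *Nfe2l2*, whereas *Nfe2l1* was not analysed here, so that overexpression in the group labelled Nrf1 was not checked.

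With Nrf1, 8 of the 10 fibroblast markers were lower than in LacZ samples and none was higher, with a median log2 ratio of -1.43. Among the 11222 genes of that table with an average mean of at least 10, 17.3% were lower by the same fold and 11.5% were higher, with a median log2 ratio of 0.01. With Nrf2, 7 of the 10 markers were lower than in LacZ samples and none was higher, with a median of -0.95. Here 10.4% of 11406 genes were lower, 9.14% were higher and the median was 0.00. The markers outside both counts were *Vim* and *S100a4*, together with *Pdgfra* in Nrf2 samples. The summed level of the 8 markers other than *Vim* and *S100a4* was 3658 in LacZ and 1272 in Nrf1 samples, which is 34.8% of the control. In the table with Nrf2 the sums were 3907 and 2016, or 51.6% of the control. With *Vim* and *S100a4* included, which make up most of the summed level, the sums stood at 86.1% of LacZ with Nrf1 and 88.1% with Nrf2.

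**Figure D1:**
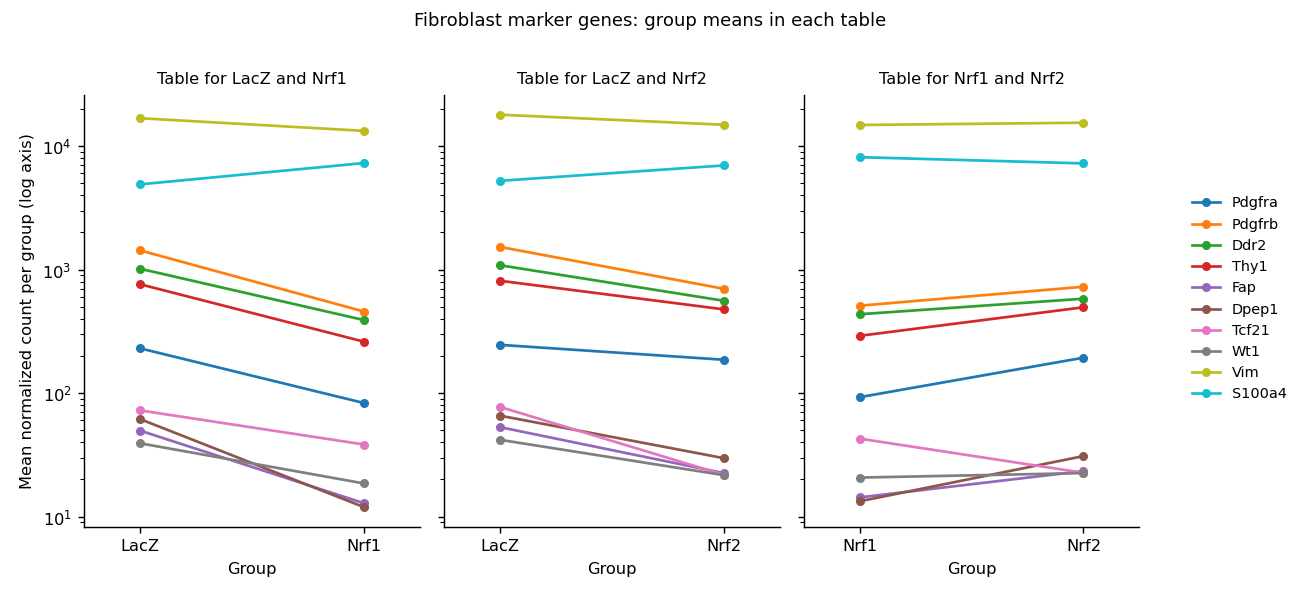
Mean normalized count of each fibroblast marker (log axis) in the 2 groups of each deposited table, with 1 point per group mean and 1 colored line per gene. No error bars are drawn because the tables hold no values per library. Most lines slope down from LacZ to either factor, for example from 1430 to 457 for *Pdgfrb* with Nrf1, whereas *S100a4* slopes up from 4901 to 7291 and *Vim* slopes down from 16818 to 13283.

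The 3 receptor genes encode tyrosine kinases that sense growth factors or matrix. *Pdgfra*, the receptor for platelet-derived growth factor (PDGF) that marks resident cardiac fibroblasts, had a mean of 230 in LacZ and 83.0 in Nrf1 samples, a ratio of 0.361 (counting interval 0.311 to 0.417). In the table with Nrf2 its means were 246 in LacZ and 186 in Nrf2 samples, a ratio of 0.757 (0.678 to 0.846) that did not pass 1.5-fold. The level of *Pdgfra* was thus well below the control with Nrf1 and closer to it with Nrf2. *Pdgfrb*, the second PDGF receptor, went from 1430 in LacZ to 457 in Nrf1 samples (ratio 0.320, interval 0.301 to 0.340). In the other table it went from 1527 in LacZ to 699 in Nrf2 samples (ratio 0.458, interval 0.435 to 0.482). *Ddr2*, a receptor for fibrillar collagen, was at 1015 in LacZ and 390 in Nrf1 samples (ratio 0.384, interval 0.359 to 0.410). Against Nrf2 it was at 1084 in LacZ and 559 in Nrf2 samples (ratio 0.516, interval 0.486 to 0.547). Both genes were lower with either factor, and the lowest group mean of each was that of Nrf1.

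The markers *Thy1*, *Fap* and *Dpep1*, encode proteins of the cell surface, in addition to the receptors. *Thy1*, a lipid-anchored glycoprotein used to sort fibroblasts, had means of 760 in LacZ and 261 in Nrf1 samples (ratio 0.343, interval 0.316 to 0.372), and of 812 in LacZ and 476 in Nrf2 samples (ratio 0.587, interval 0.550 to 0.626). *Fap*, a serine protease of activated fibroblasts, was at 49.6 in LacZ and 12.8 in Nrf1 samples (ratio 0.258, interval 0.177 to 0.369), and at 53.0 in LacZ and 22.5 in Nrf2 samples (ratio 0.424, interval 0.316 to 0.565). *Dpep1*, a dipeptidase that cleaves dipeptides such as those from glutathione breakdown, was at 61.5 in LacZ and 11.9 in Nrf1 samples (ratio 0.194, interval 0.132 to 0.276). Its mean in the second table was 65.7 in LacZ and 29.7 in Nrf2 samples (ratio 0.452, interval 0.350 to 0.582). The LacZ mean of *Dpep1* was 5.16-fold that of Nrf1 samples, the farthest apart of any of the 10 markers. It rested on about 177 reads in LacZ and 37 in Nrf1 samples, so its interval is also among the widest.

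*Tcf21* and *Wt1* encode transcription factors of the epicardium and the fibroblasts that arise from it. *Tcf21* had a mean of 72.4 in LacZ and 38.3 in Nrf1 samples (ratio 0.530, interval 0.420 to 0.667). In the table with Nrf2 it had 77.3 in LacZ and 21.8 in Nrf2 samples (ratio 0.282, interval 0.213 to 0.370). It was the only marker past 1.5-fold whose mean was lower with Nrf2 than with Nrf1, and of the 11406 genes with an average mean of at least 10, 38 had a lower ratio of Nrf2 to LacZ. *Wt1* was at 39.2 in LacZ and 18.5 in Nrf1 samples (ratio 0.473, interval 0.339 to 0.656), and at 41.9 in LacZ and 21.6 in Nrf2 samples (ratio 0.517, interval 0.378 to 0.699). Its levels were lower than the control by about the same ratio in both tables.

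*Vim* and *S100a4*, the markers with the highest means, stayed within 1.5-fold of LacZ with either factor, *Vim* below the control and *S100a4* above it. *Vim*, the intermediate filament protein vimentin, had means of 16818 in LacZ and 13283 in Nrf1 samples, a log2 ratio of -0.34, and of 17960 in LacZ and 14888 in Nrf2 samples, a log2 ratio of -0.27. *S100a4*, a calcium-binding protein also called fibroblast-specific protein, had a mean of 4901 in LacZ and 7291 in Nrf1 samples. That ratio of 1.49 (counting interval 1.46 to 1.52) lay just under the 1.5-fold limit, which its interval includes. In the other table *S100a4* was at 5233 in LacZ and 6971 in Nrf2 samples (ratio 1.33, interval 1.30 to 1.36). It was the only one of the 10 markers with a higher mean than LacZ in either comparison.

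**Figure D2:**
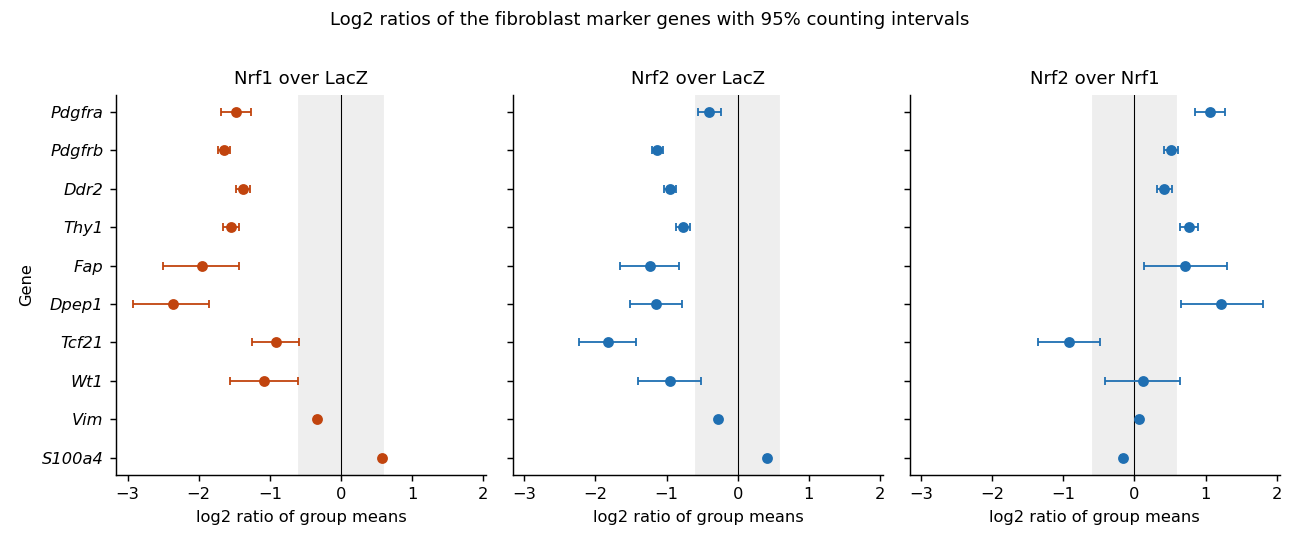
Log2 ratio of the group means for each fibroblast marker in the 3 comparisons, with bars for the 95% counting interval and a gray band for ratios within 1.5-fold. With Nrf1, 8 markers lie left of the band, and with Nrf2, 7 do. In Nrf2 over Nrf1, 4 lie to its right and *Tcf21* alone to its left.

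When Nrf2 samples were set directly against Nrf1 samples, *Pdgfra*, *Thy1*, *Dpep1* and *Fap* were higher with Nrf2 and *Tcf21* was lower. Of the 11326 genes with an average mean of at least 10 in that table, 11.5% were higher and 4.98% were lower, against 4 and 1 of the 10 markers. The median log2 ratio was 0.46 for the markers and -0.01 for all of these genes. *Dpep1* had means of 13.3 in Nrf1 and 30.9 in Nrf2 samples, a ratio of 2.32 (counting interval 1.58 to 3.50). *Pdgfra* went from 92.6 in Nrf1 to 193 in Nrf2 samples (ratio 2.09, interval 1.81 to 2.43) and *Thy1* from 291 to 495 (ratio 1.70, interval 1.56 to 1.85). *Fap*, at 14.3 and 23.4, had a ratio of 1.64 with an interval from 1.10 to 2.46 that reaches well inside 1.5-fold. *Tcf21* was at 42.8 in Nrf1 and 22.6 in Nrf2 samples (ratio 0.529, interval 0.390 to 0.715).

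The other 5 markers were within 1.5-fold between the factors. *Pdgfrb* (510 in Nrf1 and 726 in Nrf2 samples) and *Ddr2* (435 and 581) had log2 ratios of 0.51 and 0.42. *Wt1* was at 20.7 and 22.5, *Vim* at 14820 and 15471 and *S100a4* at 8135 and 7244, with log2 ratios of 0.12, 0.06 and -0.17. The counting interval of the *Wt1* ratio, 0.754 to 1.56, included 1. This table holds the same libraries on another scale, so its values are no independent check of the comparisons with LacZ. The counts depended on the scale: with ratios taken relative to the median cardiomyocyte marker, which was itself 0.42 higher on the log2 scale in Nrf2 than in Nrf1 samples, *Pdgfra* and *Dpep1* were higher with Nrf2, *Tcf21* and *S100a4* were lower, and the log2 ratios of *Ddr2*, *Vim* and *Wt1* turned below 0. The median log2 ratio of the 10 markers was then 0.04.

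Genes that belong with the markers by function were examined as lists, and their shares are to be read beside the percentages of all genes given above. Of 13 matrix products of fibroblasts, all 13 were lower with Nrf1 (median log2 ratio -1.51). With Nrf2, 8 were lower and 1 was higher (median -0.73). *Dcn*, a small proteoglycan that binds collagen fibrils, was at 709 in LacZ and 144 in Nrf1 samples, and at 757 and 330 in the table with Nrf2. *Col1a2*, a chain of type I collagen, was at 216 and 40.0 with Nrf1 but at 231 and 164 with Nrf2, a log2 ratio of -0.49 that did not pass 1.5-fold. The other chain, *Col1a1*, named after its values were seen, was past 1.5-fold with both factors. *Col1a1* was at 86236 and 22603 with Nrf1 and at 92091 and 50011 with Nrf2, a log2 ratio of -0.88. The listed level of *Col1a2* was far below that of *Col1a1*, although both encode chains of type I collagen. Whether the reads counted for *Col1a2* cover the whole gene was not checked, so its ratios may not stand for the full transcript. *Fbln1*, a matrix glycoprotein, and *Loxl1*, an enzyme of elastic fiber assembly, had the highest ratios of the list with Nrf1, at log2 -1.01 and -0.96, and stood at -0.39 and -0.73 with Nrf2. In Nrf2 over Nrf1, 9 of the 13 matrix genes were higher and none was lower. The summed level of the list, most of which is *Col1a1*, was 28.6% of LacZ with Nrf1 and 55.6% with Nrf2. *Mfap5*, a microfibril component named after its values were seen, had opposite ratios: 99.4 in LacZ against 18.4 in Nrf1 samples, and 106 in LacZ against 273 in Nrf2 samples.

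Genes of activated fibroblasts were less uniform. With Nrf1, 7 of 12 were lower and 3 were higher, and with Nrf2, 7 were lower and 1 was higher. *Postn*, a matrix protein of injured hearts, had log2 ratios of -1.73 with Nrf1 and -1.01 with Nrf2, and *Tnc*, the matrix protein tenascin C, of -2.32 and -1.25. *Acta2* and *Tagln*, smooth muscle actin and an actin-binding protein that myofibroblasts share with smooth muscle and immature myocytes, were higher with Nrf1, with log2 ratios of 0.84 and 0.83. Their log2 ratios with Nrf2 were 0.49 and 0.36. Of 14 mesenchymal transcription factors, 10 were lower and 1 was higher with Nrf1, and 8 were lower and none higher with Nrf2. *Prrx1*, a homeobox gene of connective tissue, was at 306 in LacZ and 119 in Nrf1 samples and at 326 and 189 in the table with Nrf2. *Tbx18*, an epicardial factor, was at 240 and 119 with Nrf1 but at 256 and 254 with Nrf2. *Scx*, a tendon factor, had log2 ratios of 1.07 and 0.23, and *Twist1* of -0.36 and -0.59.

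Of 10 other surface proteins of fibroblasts, 6 were lower with Nrf1 and 4 with Nrf2, and none was higher. *Cdh11*, a mesenchymal cadherin, was at 1098 in LacZ and 353 in Nrf1 samples and at 1173 and 606 in the table with Nrf2. *Lrp1*, an endocytic receptor, had log2 ratios of -1.41 and -0.69. *Nt5e*, an ectonucleotidase, had -0.28 and -0.10, and the integrin gene *Itgb1*, which most cells express, had -0.19 and -0.04.

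**Figure D3:**
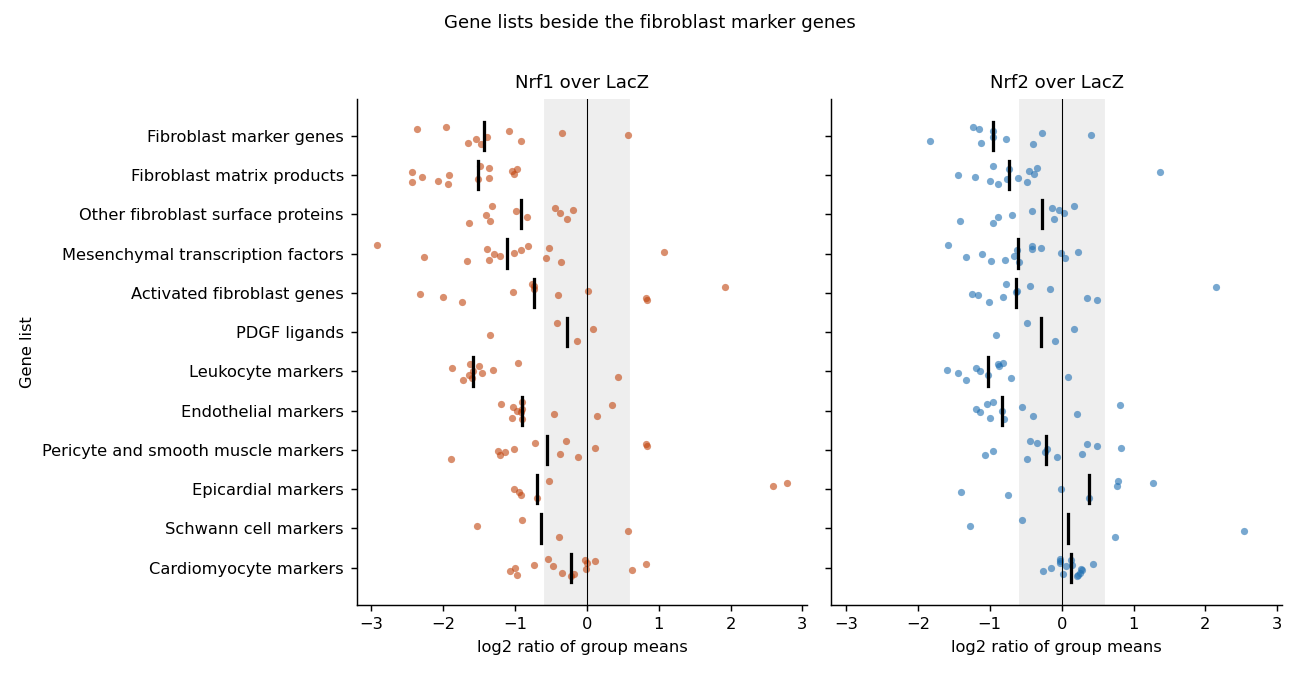
Log2 ratios with Nrf1 (left) and Nrf2 (right) over LacZ for the genes of each list with an average mean of at least 10, with 1 point per gene, a black bar at the median of the list and a gray band for ratios within 1.5-fold. The medians of the fibroblast markers and the matrix products are -1.43 and -1.51 with Nrf1 and -0.95 and -0.73 with Nrf2, and the cardiomyocyte markers center on -0.21 and 0.13.

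The ligands of the PDGF receptors and relatives of the markers by gene family were examined next. Among 4 PDGF ligand genes only *Pdgfb*, named after its values were seen, was lower with each factor, while *Pdgfa*, *Pdgfc* and *Pdgfd* were all within 1.5-fold, with log2 ratios from -0.41 to 0.08 with Nrf1 and from -0.48 to 0.17 with Nrf2. Of 3 receptor relatives with enough reads, *Ddr1*, the second collagen receptor of the discoidin family, had log2 ratios of 0.56 and 0.42, opposite in sign to *Ddr2*. *Csf1r*, the receptor of macrophage growth factor, had 0.43 and 0.08, and *Kit*, the stem cell factor receptor, had 0.00 and 0.85, which passed 1.5-fold with Nrf2.

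Of 8 relatives of *S100a4* in the S100 family, 3 were higher with Nrf1 and 2 with Nrf2, and none was lower. *S100a13* was at 69.8 in LacZ and 297 in Nrf1 samples, and at 74.5 and 94.9 in the table with Nrf2. *S100a10*, an annexin partner, had log2 ratios of 0.69 and 0.30, *S100a16* of 0.18 and -0.03, and *S100a6* of -0.17 and -0.03. Among 8 intermediate filament genes related to *Vim*, 5 were higher with Nrf1 and none was lower, and 3 were higher and 1 was lower with Nrf2. The keratin gene *Krt18* was at 117 in LacZ and 808 in Nrf1 samples and at 125 and 304 in the table with Nrf2, and its partner *Krt8* was at 92.7 and 560 with Nrf1 and at 99.0 and 170 with Nrf2. *Lmna*, the nuclear lamin gene, and *Synm*, a muscle filament gene, stayed within 1.5-fold, with log2 ratios of 0.11 and 0.11 with Nrf1 and 0.13 and 0.35 with Nrf2. Of 6 peptidase relatives of *Dpep1* and *Fap*, 2 were lower with each factor. *Dpep2*, a paralog of *Dpep1* named after its values were seen, had log2 ratios of -1.45 and -0.77. *Dpp7*, a lysosomal dipeptidyl peptidase, had log2 ratios of -1.10 and -0.26, *Prep* of -0.50 and -0.17, *Dpp8* of 0.22 and 0.07 and *Dpp9* of 0.50 and 0.05.

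Markers of other cells in the heart were measured beside the fibroblast markers, since several of them could be present in the culture. Cardiomyocyte markers were abundant in every group: 15 of the 16 listed genes were found, each with a mean of at least 383 in every group, and their sum was 175776 in LacZ and 171798 in Nrf1 samples, and 187693 in LacZ and 206467 in Nrf2 samples. With Nrf1, 4 were lower and 2 higher, and with Nrf2 none passed 1.5-fold in either direction. These counts and those of the cell types below are to be read beside the shares of all genes. Those shares were 17.3% lower and 11.5% higher with Nrf1, and 10.4% lower and 9.14% higher with Nrf2. *Myh7*, a slow myosin heavy chain, was at 14444 in LacZ and 6887 in Nrf1 samples, and *Myl2*, a ventricular light chain, at 9375 and 4689. *Ryr2*, the calcium release channel, and *Actc1*, cardiac actin, had log2 ratios of 0.83 and 0.63 with Nrf1. Leukocyte markers were lower in 10 of 11 cases with each factor, with medians of -1.58 and -1.02. The sum over the leukocyte list was 2188 in LacZ and 1097 in Nrf1 samples, and 2337 in LacZ and 1199 in Nrf2 samples. *Csf1r*, part of this sum, was the exception and stayed within 1.5-fold. It was at 265 in LacZ and 358 in Nrf1 samples and at 283 and 300 in the table with Nrf2. *Cd68*, a macrophage marker, was at 275 in LacZ and 91.2 in Nrf1 samples and at 294 and 180 in the table with Nrf2. The integrin gene *Itgam* had log2 ratios of -1.58 and -1.14, and the mannose receptor gene *Mrc1* of -0.95 and -0.81.

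Endothelial markers were lower in 8 of 11 cases with Nrf1 and in 7 with Nrf2, where 1 was higher, and their sum was 59.3% and 59.7% of LacZ. *Cdh5*, the cadherin of vessel linings, was at 209 and 102 with Nrf1 and at 223 and 111 with Nrf2. The receptor gene *Flt1* had log2 ratios of -0.97 and -0.84, *Kdr* of 0.14 and -0.40 and *Egfl7* of 0.35 and 0.81. Of 12 pericyte and smooth muscle markers, 6 were lower and 2 higher with Nrf1, and 2 were lower and 1 higher with Nrf2. *Mcam*, an adhesion molecule, had log2 ratios of -1.24 and -0.95, and *Notch3* of -1.13 and -0.23. The higher genes with Nrf1 were *Acta2* and *Tagln*, which carried the sum of this list to 149% of LacZ, against 125% with Nrf2.

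Of 7 epicardial markers, 4 were lower and 2 higher with Nrf1, and 2 were lower and 3 higher with Nrf2. The higher genes with Nrf1 were *Krt8* and *Krt18*, which carried the sum of the list to 211% of LacZ, against 129% with Nrf2. These 2 keratin genes also stand among the relatives of *Vim* above. The other 5 epicardial markers were all below LacZ with Nrf1. *Upk1b*, a uroplakin gene of the mesothelium, had log2 ratios of -0.69 and 0.38. Of 4 Schwann cell markers, 2 were lower and none higher with Nrf1, and 1 was lower and 2 higher with Nrf2, with sums at 57.1% and 90.6% of LacZ. *Cnp*, a myelin enzyme also made by other cells, had log2 ratios of -0.90 and -0.55. None of the listed markers of any cell type that were found was at 0 in any group. The part of each of these cell types in the levels of the fibroblast markers was not tested.

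**Figure D4:**
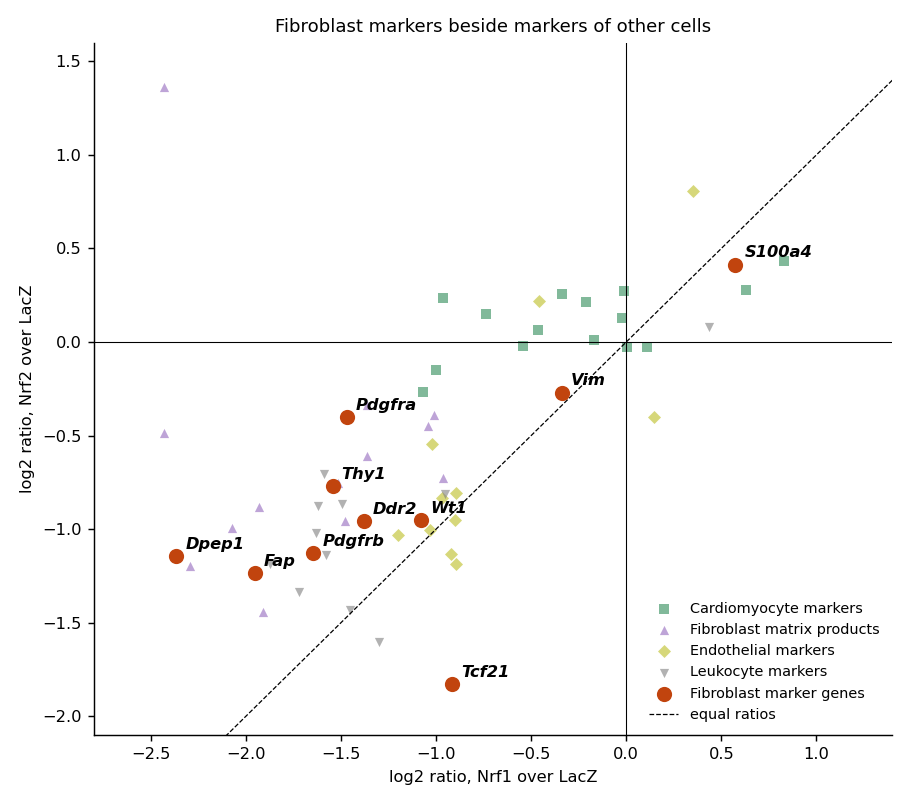
Log2 ratio with Nrf2 over LacZ (vertical) against log2 ratio with Nrf1 over LacZ (horizontal) for single genes of 5 lists with an average mean of at least 10, where both axes share the LacZ libraries. Of the 10 fibroblast markers, *Tcf21* at -0.92 and -1.83 and *S100a4* at 0.57 and 0.41 lie below the dashed line of equal ratios, *S100a4* is the only one above 0 on either axis, and *Pdgfra* stands at -1.47 and -0.40.

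The 5 genes whose pair of log2 ratios over LacZ lay nearest to the markers' median pair, by Euclidean distance among 8214 genes with an average mean of at least 100, were *Eif2ak2*, *Igfbp3*, *B2m*, *Il33* and *Anpep*. *Eif2ak2*, a kinase activated by double-stranded RNA, was at 4214 in LacZ and 1539 in Nrf1 samples and at 4501 and 2317 in the table with Nrf2. *Igfbp3*, a binding protein of insulin-like growth factors, was at 319 and 119 with Nrf1 and at 340 and 173 with Nrf2. *B2m*, the light chain of class I antigen molecules, was at 10262 and 3715 with Nrf1 and at 10960 and 5706 with Nrf2. The cytokine gene *Il33* was at 241 and 90.0 with Nrf1 and at 258 and 129 with Nrf2, and *Anpep*, a membrane aminopeptidase, had log2 ratios of -1.43 and -1.01. The likeness covers 2 ratios that share a control group.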

How the data were processed

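RNA of 9 libraries of neonatal rat ventricular myocytes was measured, 3 per group (LacZ, Nrf1, Nrf2), grouped by the overexpressed gene in the labels. Per the study's methods and processing notes, the authors ran FastQC 0.11.4 on the stranded single-end reads, used HISAT2 2.0.4 for alignment to the rat build Rnor_6.0, removed duplicates with SAMtools 0.1.18, counted reads per gene with featureCounts 1.6.0 and named edgeR 3.20.5 for the comparisons. Removing duplicates from single-end reads can lower the counts of highly expressed genes. The deposited values used here are a signal, the mean normalized count of each group. Which tool normalized them is not given in the sources used here. Columns with the authors' fold changes and p-values were not used. Nothing says whether the 3 libraries of a group came from separate isolations.

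Ratios of the 2 group means of a table were taken with no pseudocount, and genes with an average mean of at least 10 formed the background. The 3 lowest recurring values of each column were read as 1 read in each of 3 libraries, which differed by a factor of 1.18 to 1.21 within a group. Dividing a mean by the average of these steps gave the approximate number of reads, and an exact (Clopper-Pearson) 95% interval on the share of reads gave the interval of the ratio. The calculation was tested on simulated data. From each of 15 gene lists, the genes with an average mean of at least 100 in the table for Nrf1 and LacZ and the 2 lowest and 2 highest ratios were named (all where a list had 4 or fewer). All markers, the 5 nearest genes and, of the overexpressed genes, *Nfe2l2* were named as well. Genes named outside these rules are marked. The markers and lists were chosen with earlier results of these data known. The alternatives covered the pseudocount, the scaling, the filter, the fold limit and the markers counted. Python 3.11.15, pandas 2.3.3, NumPy 2.4.6 and SciPy 1.17.1 were used. The study's cells are rat, and no rat genome was used here, so positions and sequences are not given.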

Additional observations from a re-analysis of the deposited data

How the results depend on the processing

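Adding 1 to each mean, re-centering on the median gene, scaling to the summed means and dropping the filter moved none of the 6 counts of markers past the fold limit by over 1.5 times, and no ratio past 1.5-fold changed sign under any alternative. Of 160 marker ratios under an alternative, 132 moved by less than their counting interval and 28 moved by more. The median cardiomyocyte marker had log2 ratios of -0.21, 0.13 and 0.42 in Nrf1 over LacZ, Nrf2 over LacZ and Nrf2 over Nrf1, and with these subtracted, 1 marker (*S100a4*, log2 ratio 0.79) became higher with Nrf1, and between the factors 2 were higher and 2 lower with Nrf2. At a limit of 2-fold, 7 markers were lower with Nrf1 and 4 with Nrf2 than LacZ, and in Nrf2 over Nrf1 2 were higher and 0 lower. The shares of all genes past 2-fold, or past 1.5-fold at an average mean of at least 100, were not calculated. The percentages given above therefore do not apply to these counts or the next ones. Only 6 markers had an average mean of at least 100; of these, 4 were lower with Nrf1 and 3 with Nrf2 than LacZ, and in Nrf2 over Nrf1 2 were higher and 0 lower. Without *Vim*, *S100a4*, *Thy1*, *Pdgfrb* and *Wt1*, which other cells share, 5 of 5 were lower with Nrf1 and 4 of 5 with Nrf2. In Nrf2 over Nrf1, 3 of these 5 were higher and 1 was lower. *Tcf21* was kept among them, although the epicardium also expresses it. With fewer markers counted, fewer could pass. Adding 10 to each mean left 3 markers higher in Nrf2 over Nrf1, without *Fap*. No paired analysis was possible because the tables hold 1 mean per group, and for the same reason leaving out a replicate and the replicate block were not run. Depth limits *Dpep1*, *Fap*, *Tcf21* and *Wt1* most, with about 37 to 209 reads per group.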

Other observations

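Further genes of the lists around the fibroblast markers are given here, all named after their values were seen. *Des*, the muscle intermediate filament gene desmin, was at 11883 in LacZ and 29439 in Nrf1 samples and at 12690 and 21323 in the table with Nrf2, higher with both factors while *Vim* was within 1.5-fold. *Foxs1*, a forkhead factor of mesenchymal and perivascular cells, was at 64.1 in LacZ and 8.48 in Nrf1 samples and at 68.4 and 22.9 with Nrf2. *Comp*, a matrix protein of cartilage and tendon, was at 10.9 and 41.1 with Nrf1 and at 11.6 and 51.4 with Nrf2. *S100b*, a glial relative of *S100a4*, had log2 ratios of 0.57 with Nrf1, within 1.5-fold, and 2.53 with Nrf2. *Fn1*, the gene for fibronectin, was at 95891 and 72502 with Nrf1, within 1.5-fold, and at 102400 and 45705 with Nrf2, so that, as for *Tcf21*, its level relative to LacZ was lower with Nrf2 than with Nrf1. None of these differences carries a test, since no values per library were available here and the authors' own comparison columns were not used.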
